A study of Homo sapiens with 74 samples.

Results

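The nuclear genes of oxidative phosphorylation were followed by RNA sequencing in K562 and HEL, established human erythroleukaemia cell lines, after loss of DOT1L or of its partner ENL. Members were chosen by gene symbol, as every listed gene that starts with NDUF followed by A, B, C, S or V, is SDHA, SDHB, SDHC or SDHD, or starts with UQCR, with COX4 to COX8 or with ATP5. This gave 103 of 28131 listed genes: 77 subunits of the 5 respiratory complexes, 8 complex I assembly factors, 10 paralogues of subunits, the ATP synthase inhibitor ATP5IF1, and 7 read-through, antisense or pseudogene entries. The study examined how the DOT1L complex regulates transcription. Its groups used here were wild type K562 (3 columns, counted as 2 libraries as described below), DOT1L-/- K562 (3 libraries), ENL-/- K562 (3 libraries), HEL control (2 libraries) and HEL with DOT1L knockdown (2 libraries). The labels name no agent or allele for the HEL control, no method for the knockdown, and do not say whether a knockout line was 1 clone, or whether replicates were separate cultures. The p-values below therefore measure only the spread between these libraries, which may be technical.

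Oxidative phosphorylation passes electrons from NADH and succinate to oxygen through 4 membrane complexes and uses the resulting proton gradient to make ATP in the fifth. Complex I oxidises NADH, complex II (succinate dehydrogenase) oxidises succinate, complex III passes electrons to cytochrome c, complex IV (cytochrome c oxidase) reduces oxygen, and complex V is the ATP synthase. Complexes I, III, IV and V combine subunits encoded in mitochondrial DNA with imported, nuclear-encoded ones, whereas all complex II subunits are nuclear-encoded. In erythroid cells mitochondria also supply haem synthesis, and red cells lose them on maturation. DOT1L is the H3K79 methyltransferase, and ENL (gene symbol MLLT1) is an acyl-lysine reader of the DOT1L complex and of the super elongation complex.

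Total counts were 15404944 to 29236703 fragments per library in K562 and 12151495 to 12811688 reads per library in HEL. The K562 control columns 2 and 3 held identical counts in all 28131 genes and were counted as 1 library, so the K562 control rests on 2 libraries. The targeted genes were checked first. DOT1L changed by -0.53 ± 0.057 on the log2 scale (SE) in the DOT1L-/- libraries and by -1.64 ± 0.064 in the HEL knockdown, and MLLT1 by -0.48 ± 0.051 in the ENL-/- libraries. The labels of the ENL-/- libraries name no sequencing lane, while those of the other K562 groups do, so a batch difference cannot be told apart from the ENL genotype. All 13 erythroid markers examined, such as GATA1 and the globins, were found at 5 CPM (counts relative to the TMM-scaled library size) or more in every K562 library, and 12 of 13 in every HEL control library. Their summed level was 7570 to 8140 CPM in the K562 controls, 11600 to 12200 in DOT1L-/-, 9480 to 9750 in ENL-/-, 7340 to 7470 in the HEL controls and 10200 to 10900 in the knockdown. Of 15 markers of T, B, monocytic, epithelial and fibroblast cells, 5 reached 5 CPM in every library of each K562 group and 2 in every library of each HEL group. Their sum was 584 to 607 CPM in the K562 controls, 829 to 901 in DOT1L-/-, 620 to 694 in ENL-/-, 74.5 to 80 in the HEL controls and 91.1 to 96.8 in the knockdown. The part of these markers in the results below was not tested.

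The sequence upstream of a few members is shown because their RNA levels carry the results below: COX7C and ATP5PD passed the test as higher and NDUFAF2 as lower in all 3 comparisons with a control, and COX7B2 had the largest fold change of any member. The stretches are taken from RefSeq (GRCh38.p14) as the bases just before the annotated start, 5′ to 3′ on the gene's strand, without bases that the deposited tables place inside the gene. Capitals mark an ETS motif, the core bound by the GABP regulator of mitochondrial genes.
COX7C, chr5:86617691-86617940, plus strand: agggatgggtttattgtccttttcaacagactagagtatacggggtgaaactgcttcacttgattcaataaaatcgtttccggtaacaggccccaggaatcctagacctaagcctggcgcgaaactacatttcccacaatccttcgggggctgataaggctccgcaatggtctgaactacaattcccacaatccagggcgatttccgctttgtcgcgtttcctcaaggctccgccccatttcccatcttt
ATP5PD, chr17:75046980-75047219, minus strand: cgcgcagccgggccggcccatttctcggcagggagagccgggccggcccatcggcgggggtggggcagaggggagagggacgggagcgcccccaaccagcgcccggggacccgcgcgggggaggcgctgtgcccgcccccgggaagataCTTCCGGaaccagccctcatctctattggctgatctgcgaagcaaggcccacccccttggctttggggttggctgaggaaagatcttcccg
NDUFAF2, chr5:60944955-60945128, plus strand: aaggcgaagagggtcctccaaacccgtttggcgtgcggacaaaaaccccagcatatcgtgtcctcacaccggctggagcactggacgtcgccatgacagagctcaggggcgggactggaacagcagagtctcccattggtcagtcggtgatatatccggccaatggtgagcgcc
COX7B2, chr4:46909246-46909495, minus strand: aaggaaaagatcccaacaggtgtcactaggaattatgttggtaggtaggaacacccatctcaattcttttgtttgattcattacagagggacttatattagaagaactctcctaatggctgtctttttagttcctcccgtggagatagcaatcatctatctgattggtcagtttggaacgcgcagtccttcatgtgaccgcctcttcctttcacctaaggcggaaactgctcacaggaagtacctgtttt

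The 4 stretches differed in base composition, with a GC content of 71.7% for ATP5PD, 59.8% for NDUFAF2, 49.2% for COX7C and 43.2% for COX7B2. Motifs of the 2 factors named for the nuclear control of respiration were then searched on both strands in the 250 bases upstream of every RefSeq start: NRF1 as GCGC, any 2 bases and GCGC and ETS as CCGGAAG. Entries were found for 64 of the 77 subunits. Of these, 23.4% held the NRF1 motif, 26.6% the ETS motif and 46.9% (30 genes) at least 1 of them. Among the genes tested in K562 with an entry the shares were 13.6%, 15.8% and 27.2%, and among all promoters of the same length 7.58%, 8.82% and 15.2%. A match is a description of the sequence and not of binding. A second shared feature was the neighbour upstream. Of 76 subunits, 26 (34.2%) started within 1000 bases of a gene on the opposite strand that runs away from them, as did 7 of the 8 complex I assembly factors (87.5%) and 16.6% of 14289 genes tested in K562. NDUFB11 started 8 bases from RBM10, COX4I1 25 bases from EMC8, SDHD 26 bases from TIMM8B and NDUFAF2 51 bases from ERCC8. The gene table places NDUFA4 at chr7:10931953-10940186, COX7C at chr5:86617967-86620766, ATP5PD at chr17:75038860-75046979, NDUFS5 at chr1:39026295-39034636, NDUFAF1 at chr15:41387349-41402460 and NDUFAF2 at chr5:60945129-61153037 (GRCh38), each counted over all exons of the gene.

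Subunit RNAs were abundant in both lines. The 77 subunits together took 11250 and 11490 CPM in the K562 controls and 11960 and 12280 CPM in the HEL controls. At least 10 CPM were counted in every library for 74 of them, the exceptions being NDUFA3, NDUFA6 and ATP5F1E. Levels were also put on a scale of CPM per kilobase of exon, taken over all annotated exons of a gene. The transcript made can be shorter than that length, so comparisons of genes on this scale are approximate. The median subunit lay at 93.9 CPM per kilobase in the K562 controls and 84.7 in the HEL controls. By complex, the K562 control medians were 63 CPM per kilobase for complex I, 80.3 for complex II, 108 for complex III, 236 for complex IV and 148 for complex V. The first 3 places were the same in the HEL controls, with 202 for complex IV and 126 for complex V ahead of 85.8 for complex III, 66.9 for complex I and 49.6 for complex II. ATP5F1B, the catalytic beta subunit of the ATP synthase, was highest in both controls, at 776 CPM per kilobase in K562 and 908 in HEL.

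Within a complex the levels per length were far from equal. In the K562 controls complex IV ran from 41.7 CPM per kilobase for COX7B to 458 for COX8A, and complex III from 24.2 for UQCRB to 309 for UQCRH, the hinge protein. These ranges depend on the annotated exonic lengths, which were 2444 bases for COX7B and 507 for COX8A. They were 5223 bases for UQCRB and 771 for UQCRH. Among the redox-centre subunits of complex I, NDUFV2 stood at 169 and NDUFV1 at 148, and NDUFS1, the largest of them, at 35.2. Between the lines, 38 of the 75 subunits with counts in both controls were higher in HEL. A level at least double that of the other line was found for 12 subunits in HEL and for 16 in K562. COX7A2 was listed at 163 CPM per kilobase in HEL and 54.3 in K562, and NDUFS7 at 19.5 in HEL and 81 in K562. The tables of the lines count reads and fragments respectively, so these are descriptions with no test.

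Some low values come with limits of the counting. NDUFA3 is listed with exons on 10 scaffolds and NDUFA6 on 4, with at most 1.18 and 3.06 CPM in any K562 library, and both were at 0 in every HEL library. Of 789 protein-coding genes with exons on more than 1 scaffold, 71.1% were at 0 in every HEL library, against 22.4% of 17827 genes on 1 scaffold. ATP5F1E, the epsilon subunit, shares 66.3% of its exonic bases with the read-through gene SLMO2-ATP5E and was near 0 in both lines. Overlaps of 28.3% to 35.4% of exonic bases apply to NDUFB2, NDUFC2, ATP5PF and ATP5MF, and the use of strand in counting is not given in the sources used here. UQCRH and UQCRHL are near-identical copies whose reads may be split between them.

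Loss of DOT1L in K562 left most members near their control level. Of the 92 members that passed the filter on low counts, 6 were higher and 16 lower at an adjusted p under 0.05 (edgeR's quasi-likelihood test, Benjamini-Hochberg over all genes tested). That is 23.9% of the members, against 51.1% of all 14301 genes tested. The median log2 fold change was 0.00 for the members and 0.01 for all genes, and the median absolute change was 0.13 for the members and 0.29 for all genes. For 80.4% of the members, and 45% of all genes, the 95% interval lay within 0.5 log2 units (1.41-fold) of no change. Without TMM factors, with libraries scaled to their totals alone, the split was 12 higher and 14 lower, and 50.7% of all genes were called. Calls with a change of at least 0.5 numbered 5 among the members and made up 28.6% of all genes tested. The libraries of the groups did not overlap for 44.6% of the members and for 68.1% of all genes.

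**Figure D1:**
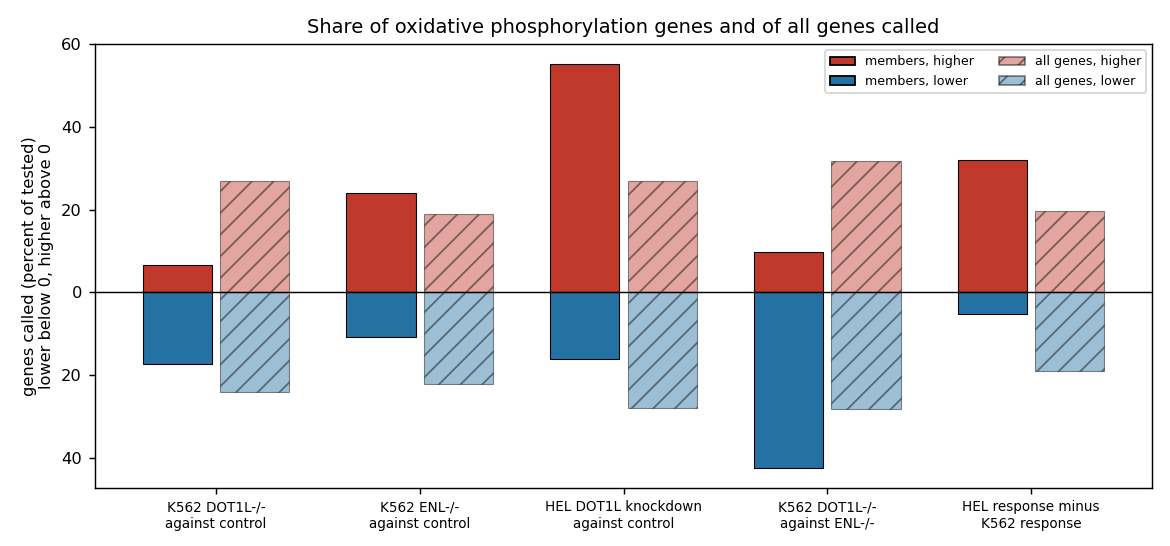
Share of the oxidative phosphorylation genes (solid bars) and of all genes tested (hatched bars) called at an adjusted p under 0.05 in each comparison, in percent of the genes tested, with higher calls above 0 and lower calls below 0. The share called was 23.9% of the members and 51.1% of all genes in DOT1L-/-, and 71.3% and 55% in the HEL knockdown.

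By complex, the subunits called in DOT1L-/- were few. Complex I had 1 higher and 5 lower of 37 (median log2 fold change 0.01), complex II 0 higher and 1 lower of 4 (-0.15), and complex III 0 higher and 2 lower of 8 (-0.08). Complex IV had 3 higher and none lower of 11 (0.12), and complex V 1 higher and 3 lower of 16 (0.00). The 8 complex I assembly factors had 0 higher and 4 lower, with a median of -0.29. That is 50% called, near the 51.1% of all genes (26.9% higher and 24.2% lower). Summed over the 4 subunits, complex II took 581.1 and 602.4 CPM in the controls and 514.1 to 536.2 CPM in DOT1L-/-, and the complex III sum was 1378 and 1394 CPM against 1247 to 1354 CPM, neither overlapping. The complex I sum was 3044 and 3222 CPM in the controls and 2909 to 3257 in DOT1L-/-, the complex IV sum 1773 and 1817 against 1804 to 1983, and the complex V sum 4434 and 4503 against 4116 to 4460, so those ranges overlapped.

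The 2 largest falls among well-expressed members with no overlap between the groups were in complex I assembly factors. Separate groups were a condition of the rule for the largest changes, so they add no support. NDUFAF2, a chaperone of the late steps of complex I assembly, had 34.8 and 29.6 CPM in the controls and 17.4, 16.9 and 14.8 CPM in the DOT1L-/- libraries. Every knockout library was thus well below both controls, and the fitted change was -0.97 ± 0.1 (SE; 1.97-fold lower, adjusted p = 3.42e-06, edgeR). NDUFAF8, a partner of the assembly factor NDUFAF5, had 45.8 and 44.9 CPM in the controls and 26.3, 26.4 and 31.7 CPM in DOT1L-/- (-0.69 ± 0.18, adjusted p = 0.00637). NDUFAF7, an arginine methyltransferase needed early in complex I assembly, stood at 19.2 and 21.8 CPM against 13.2, 14.4 and 17.3 CPM. Its call (-0.46 ± 0.11, adjusted p = 0.00345) was lost without control library 2, where the value was -0.37 (adjusted p = 0.055). NDUFAF1, needed for assembly of the membrane arm, had a change of -0.31 ± 0.089 (adjusted p = 0.011), which became -0.26 without control library 2 (adjusted p = 0.101). The other 4 assembly factors had values from -0.28 to 0.04 and were not called.

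Among complex I subunits, NDUFA10 changed most. This accessory subunit of the membrane arm had 95.5 and 101 CPM in the controls and 69.5, 70 and 66.6 CPM in DOT1L-/- (-0.51 ± 0.059, adjusted p = 7.45e-06, edgeR). NDUFS1, the largest core subunit, had a change of -0.17 ± 0.058 (adjusted p = 0.0286). That call was lost without either control library, at -0.16 without library 1 (adjusted p = 0.137) and -0.18 without library 2 (adjusted p = 0.0861), and also without knockout library 1 or 3. The other 6 core subunits had values from -0.17 to 0.14 and were not called. NDUFB11, an accessory subunit, was the only complex I subunit called higher (0.22). It dropped out without control library 1, where it was 0.17 (adjusted p = 0.165), and without knockout library 1 or 2.

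In complex II, SDHA, the flavoprotein that oxidises succinate, had 257 and 239 CPM in the controls and 219, 213 and 208 CPM in DOT1L-/-. Its change of -0.22 ± 0.062 (adjusted p = 0.0101) was lost without control library 1, where it was -0.17 (adjusted p = 0.121). The iron-sulfur subunit SDHB (-0.12) and the membrane anchors SDHC (-0.1) and SDHD (-0.19) were not called. In complex III, the Rieske iron-sulfur protein UQCRFS1 was at 194 and 185 CPM in the controls and 168, 163 and 153 CPM in DOT1L-/- (-0.23 ± 0.062, adjusted p = 0.0073). The core protein UQCRC2 was at 262 and 272 CPM against 230, 242 and 220 CPM (-0.21 ± 0.057, adjusted p = 0.00734). Both sets of libraries were separate, yet the call of UQCRFS1 was lost without control library 1 (-0.20, adjusted p = 0.0751) and that of UQCRC2 without control library 2 (-0.19, adjusted p = 0.0702). UQCRC1, the other core protein, was not called at -0.09.

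In complex IV, 3 of 11 subunits (27.3%) were called higher, close to the 26.9% of all genes called higher. NDUFA4, which carries a complex I name but is a subunit of cytochrome c oxidase, had 141 and 149 CPM in the controls and 192, 214 and 191 CPM in DOT1L-/- (0.46 ± 0.064, 1.38-fold, adjusted p = 4.44e-05). COX7A2, the widely expressed isoform of a small membrane subunit, had 69.9 and 78.7 CPM against 99, 95.7 and 89 CPM (0.35 ± 0.075, adjusted p = 0.00154). All knockout libraries were above both controls for each of these genes, which was a condition of the rule for the largest changes. COX4I1, a nuclear-encoded subunit that joins the catalytic core early, was at 297 and 308 CPM against 316, 312 and 291 CPM, which overlapped (0.02, 95% interval -0.11 to 0.14). COX5A and COX5B were not called at -0.13 and 0.17. In complex V, ATP5F1B had 1390 and 1340 CPM in the controls and 1420, 1420 and 1290 in DOT1L-/-, overlapping, with an interval of -0.12 to 0.14. ATP5MC3, a gene for the membrane-ring subunit c, had 550 CPM in both controls and 480, 481 and 443 CPM in DOT1L-/- (-0.23 ± 0.058, adjusted p = 0.00437).

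**Figure D2:**
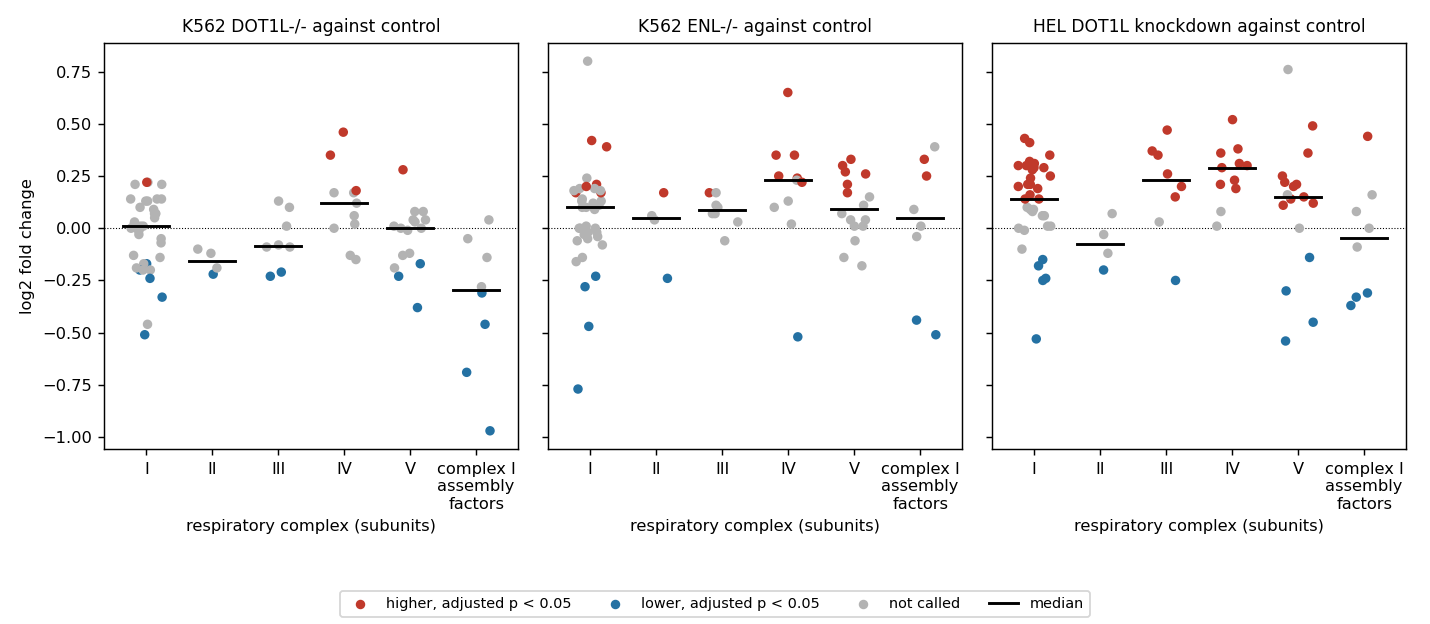
Log2 fold change of each subunit that could be tested, by respiratory complex, and of the 8 complex I assembly factors, in each comparison with a control. Points are genes, coloured by call, and black lines are medians; the median of complex IV was 0.12 in DOT1L-/-, 0.23 in ENL-/- and 0.29 in the HEL knockdown, and that of the assembly factors -0.29, 0.05 and -0.05.

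In the ENL-/- libraries more members were called higher than lower. Of the 92 members tested 22 were higher and 10 lower, which is 34.8% against 41% of all genes (edgeR, adjusted p under 0.05). Over all genes 18.8% were higher and 22.2% lower. The median log2 fold change was 0.10 for the members and 0.00 for all genes. The count depended on the controls and was lower without either control library, while the member median stayed at 0.08 to 0.12 as each library was left out. Such a fit rests on 1 control library, and the share of all genes called in it is not given here. The lower count is therefore not read as a trait of the members. Calls with a change of at least 0.5 numbered 6 among the members and made up 21% of all genes tested. The 95% interval lay within 0.5 log2 units of no change for 79.3% of the members and 48.3% of all genes. Complex I had 6 higher and 4 lower of 37 subunits (median 0.10), complex II 1 and 1 of 4 (0.05), complex III 1 and 0 of 8 (0.09), complex IV 6 and 1 of 11 (0.23), and complex V 6 and 0 of 16 (0.09). The summed complex IV level was 1773 and 1817 CPM in the controls and 1952 to 2105 CPM in ENL-/-, without overlap, and the complex V sum was 4434 and 4503 against 4624 to 4968 CPM, also without overlap. Groups did not overlap for 51.1% of the members and for 59.6% of all genes.

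Within complex IV, COX7C and COX5A moved in opposite directions in ENL-/-. COX7C, a small membrane subunit, had 167 and 176 CPM in the controls and 260, 285 and 263 CPM in ENL-/- (0.65 ± 0.066, 1.57-fold, adjusted p = 3.88e-06). COX5A, a subunit on the matrix side, had 175 and 188 CPM against 127, 128 and 125 CPM (-0.52 ± 0.057, 1.43-fold lower, adjusted p = 7.47e-06). Both differences were several times the spread within the groups. NDUFA4 was at 177, 186 and 189 CPM in ENL-/-, above both controls (0.35 ± 0.064, adjusted p = 0.000715). COX4I1, at 371, 363 and 338 CPM, had a change of 0.24 ± 0.059 (adjusted p = 0.00538), which was lost without control library 1 at 0.21 (adjusted p = 0.0634). COX6C (0.35), COX8A (0.25) and COX6B1 (0.22) were also called and lost their calls without control library 1, at 0.29, 0.17 and 0.19 (adjusted p 0.0564, 0.149 and 0.112, edgeR). COX6B1 also lost it without ENL-/- library 2 (0.19, adjusted p = 0.057).

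In complex I of the ENL-/- libraries, NDUFC1 fell most among the subunits. This small accessory subunit had 49.7 and 47.1 CPM in the controls and 29.9, 28.4 and 26.3 CPM in ENL-/- (-0.77 ± 0.082, 1.71-fold lower, adjusted p = 5.47e-06). NDUFS6, a zinc-binding subunit, was called at -0.47 but lost the call without control library 1 (-0.29, adjusted p = 0.231) and without knockout library 3 (-0.36, adjusted p = 0.0515). NDUFB3 (0.42) and NDUFB5 (0.39), both of the membrane arm, had the largest called increases in complex I and lost their calls without control library 2 (0.29, adjusted p = 0.196, and 0.35, adjusted p = 0.0584). NDUFAF2 was lower here as well, at 24.8, 21.6 and 21.5 CPM against 34.8 and 29.6 CPM (-0.51 ± 0.1, adjusted p = 0.00139), and so was NDUFAF1, at 20.1, 18.8 and 18.5 CPM against 25.1 and 26.9 CPM (-0.44 ± 0.091, adjusted p = 0.00168). In complex V, ATP5PO, the stalk subunit that confers oligomycin sensitivity, had 291 and 306 CPM in the controls and 371, 366 and 387 CPM in ENL-/- (0.33 ± 0.055, adjusted p = 0.000332). ATP5F1B, at 1570, 1450 and 1410 CPM, lay above both controls but was not called (0.11, 95% interval -0.02 to 0.25).

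The knockouts were also compared directly. Of 92 members, 9 were higher and 39 lower in DOT1L-/- than in ENL-/-, which is 52.2% against 60.2% of all genes (31.8% higher and 28.3% lower), with a member median of -0.13. Calls of at least 0.5 numbered 5 among the members, against 32.8% of all genes. With libraries scaled to their totals alone, 11 were higher and 26 lower, and 58.2% of all genes were called. Lower calls held 10 of 16 complex V subunits, 5 of 8 in complex III, 3 of 4 in complex II, 5 of 11 in complex IV, 9 of 37 in complex I, and 6 of 8 assembly factors. Groups did not overlap for 48.9% of members and 63.3% of all genes. Among members with a mean of at least 5 CPM and no overlap between the knockouts, NDUFAF8 had the largest fall, with 26.3, 26.4 and 31.7 CPM in DOT1L-/- and 69, 69.5 and 39 CPM in ENL-/- (-1.08 ± 0.17, adjusted p = 7.23e-05). The third ENL-/- library was far below the others, and still above every DOT1L-/- library. NDUFA10 was at 69.5, 70 and 66.6 CPM against 96.1, 91.5 and 98 CPM (-0.47 ± 0.053, adjusted p = 4.52e-06). UQCRC2 was at 230, 242 and 220 CPM against 313, 292 and 296 CPM (-0.38 ± 0.051, adjusted p = 2.34e-05), and SDHB at 133, 126 and 129 CPM against 158, 162 and 154 CPM (-0.29 ± 0.049, adjusted p = 0.000177). In the other direction, NDUFC1 was at 47.1, 44.5 and 41.2 CPM in DOT1L-/- and 29.9, 28.4 and 26.3 CPM in ENL-/- (0.65 ± 0.074, adjusted p = 5.17e-06), and COX5A at 170, 169 and 158 CPM against 127, 128 and 125 CPM (0.38 ± 0.051, adjusted p = 2.13e-05). NDUFA6, named after its values were seen, was called lower at -1.26, on 0.473 to 0.909 CPM in DOT1L-/- and 1.4, 0.925 and 3.06 CPM in ENL-/-, values that carry the limit on scaffolds given above. The groups nearly met, at 0.909 and 0.925 CPM.

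DOT1L knockdown in HEL was accompanied by more and mostly higher calls. Of 87 members tested, 48 were higher and 14 lower, which is 71.3% against 55% of all 12635 genes (27% higher and 28% lower; edgeR, adjusted p under 0.05), and the median log2 fold change was 0.16 for the members and 0.01 for all genes. The changes were small. The interval lay within 0.5 log2 units of no change for 81.6% of the members and 54.8% of all genes. Calls with a change of at least 0.5 numbered 3 among the members, COX7C, ATP5MG and NDUFS5, and made up 19.4% of all genes tested. Gene length moved with the response. The subunits had a median exonic length of 996 bases against 3430 for all genes tested, and other genes between the 10th and 90th percentile of subunit length had a median of 0.07, with 29.5% higher and 19.7% lower. With the trend of fold change on length removed, 34 of the 87 members were higher and 18 lower, while 54.2% of all genes were called. The member median was then 0.06. Groups did not overlap for 83.9% of the members and for 75.9% of all genes.

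By complex, the HEL knockdown had 19 higher and 5 lower of 35 complex I subunits (median 0.14), 0 and 1 of 4 in complex II (-0.08), 6 and 1 of 8 in complex III (0.23), 9 and 0 of 11 in complex IV (0.29), and 10 and 4 of 17 in complex V (0.15). The assembly factors had 1 higher and 3 lower of 8. The summed complex IV level was 1785 and 1864 CPM in the controls and 2178 and 2196 CPM in the knockdown, and the complex III sum 1485 and 1516 against 1674 and 1681 CPM, neither overlapping. The complex V sum went the other way, from 5468 and 5710 CPM to 5291 and 5330 CPM, although 10 of its subunits were called higher and 4 lower. ATP5F1B had 1560 and 1630 CPM in the controls and 1300 and 1290 CPM in the knockdown (-0.3 ± 0.027, adjusted p = 6.18e-14).

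Other complex V subunits were lower in HEL as well. ATP5PO had 649 and 712 CPM in the controls and 500 and 494 CPM in the knockdown (-0.45 ± 0.032, 1.37-fold lower, adjusted p = 1.25e-17). ATP5MG, a membrane subunit of the dimer interface, had 284 and 286 CPM against 190 and 202 CPM (-0.54 ± 0.036, adjusted p = 9.51e-19). ATP5MC3 was at 232 and 234 CPM against 210 and 214 CPM (-0.14 ± 0.035, adjusted p = 0.000844), and with upper-quartile scaling it was not called. Higher were ATP5ME, another small membrane subunit, at 76.4 and 81.2 CPM against 111 and 110 CPM (0.49 ± 0.048, adjusted p = 1.27e-12), and the subunit c gene ATP5MC1, at 79.1 and 83.2 CPM against 98.1 and 111 CPM (0.36 ± 0.051, adjusted p = 3.08e-08). ATP5F1A, the alpha subunit that alternates with beta in the catalytic ring, was higher by 0.14 ± 0.027 (adjusted p = 2.02e-05), opposite in sign to ATP5F1B.

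In the other complexes of HEL, COX7C was at 208 and 214 CPM in the controls and 303 and 304 CPM in the knockdown (0.52 ± 0.034, 1.44-fold, adjusted p = 6.41e-19). UQCR11, the smallest complex III subunit, was at 48.3 and 48.2 CPM against 66.1 and 67.4 CPM (0.47 ± 0.058, adjusted p = 1.16e-09), and UQCRFS1 at 89.2 and 86.6 CPM against 107 and 117 CPM (0.35 ± 0.048, adjusted p = 1.77e-08). UQCRC2 was lower, at 286 and 289 CPM against 246 and 238 CPM (-0.25 ± 0.034, adjusted p = 1.34e-08). In complex I, NDUFA10 was at 95.4 and 93.4 CPM against 114 and 115 CPM (0.28 ± 0.046, adjusted p = 5.87e-07). NDUFV1, the NADH-binding subunit, was called at 0.21, but without control library 2 it was 0.07 (adjusted p = 0.296). NDUFS7 was called at 0.32, and without knockdown library 2 it was 0.21 (adjusted p = 0.0544). In complex II only SDHD was called, at -0.2, and without control library 1 it was -0.12 (adjusted p = 0.122).

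NDUFA4, COX7C and ATP5PD were called higher, and NDUFS5, NDUFAF1 and NDUFAF2 lower, in each of the 3 comparisons with a control. The K562 comparisons share their control libraries, so they are not independent, and each is given by its own values. Over all 11644 genes tested in both lines, 6.23% were called in a single direction throughout (3.11% higher and 3.12% lower), and nothing is read from the members' count beside it. NDUFA4 in HEL was at 138 and 161 CPM in the controls and 187 and 182 CPM in the knockdown (0.31 ± 0.044, adjusted p = 6.11e-08), with the values for K562 given above. COX7C had its smallest change in DOT1L-/- (203, 201 and 180 CPM, 0.18 ± 0.066, adjusted p = 0.0326), a call that was lost without either control library (0.15, adjusted p = 0.213, and 0.21, adjusted p = 0.0718) and without knockout library 1 or 2. ATP5PD, a peripheral stalk subunit, was at 77.8 and 71.2 CPM in the K562 controls, 98.8, 91.7 and 80.9 CPM in DOT1L-/- and 96.5, 92.7 and 86.2 CPM in ENL-/-. Its K562 changes of 0.28 (adjusted p = 0.0121) and 0.3 (adjusted p = 0.0105) became 0.22 (adjusted p = 0.135) and 0.24 (adjusted p = 0.116) without control library 2. In HEL it was at 124 and 136 CPM against 152 and 148 CPM (0.21 ± 0.043, adjusted p = 3.63e-05), and was not called with the length trend removed.

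Of the lower ones, NDUFS5, an accessory subunit of the membrane arm, was at 146 and 135 CPM in the K562 controls, 127, 116 and 112 CPM in DOT1L-/- and 123, 124 and 112 CPM in ENL-/-. Those changes of -0.24 and -0.23 were lost without control library 1, at -0.19 (adjusted p = 0.109) and -0.17 (adjusted p = 0.176). In HEL NDUFS5 was at 117 and 121 CPM against 80.6 and 84.3 CPM (-0.53 ± 0.047, 1.44-fold lower, adjusted p = 4.51e-14), a wide separation. NDUFAF1 in HEL was at 26.5 and 25.5 CPM against 19.9 and 22 CPM (-0.31 ± 0.091, adjusted p = 0.00306), and without knockdown library 1 it was -0.24 (adjusted p = 0.0674). NDUFAF2 in HEL was at 18.2 and 19.5 CPM against 14.4 and 15.5 CPM (-0.33 ± 0.11, adjusted p = 0.00689). Without control library 2 it was -0.29 (adjusted p = 0.0615), and without knockdown library 1 it was -0.28 (adjusted p = 0.0764). The plot of these genes by library shows no overlap between a perturbed group and its control. The genes were chosen by their calls, so this adds no support. Over all genes the groups did not overlap for 68.1% in DOT1L-/-, 59.6% in ENL-/- and 75.9% in the HEL knockdown.

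**Figure D3:**
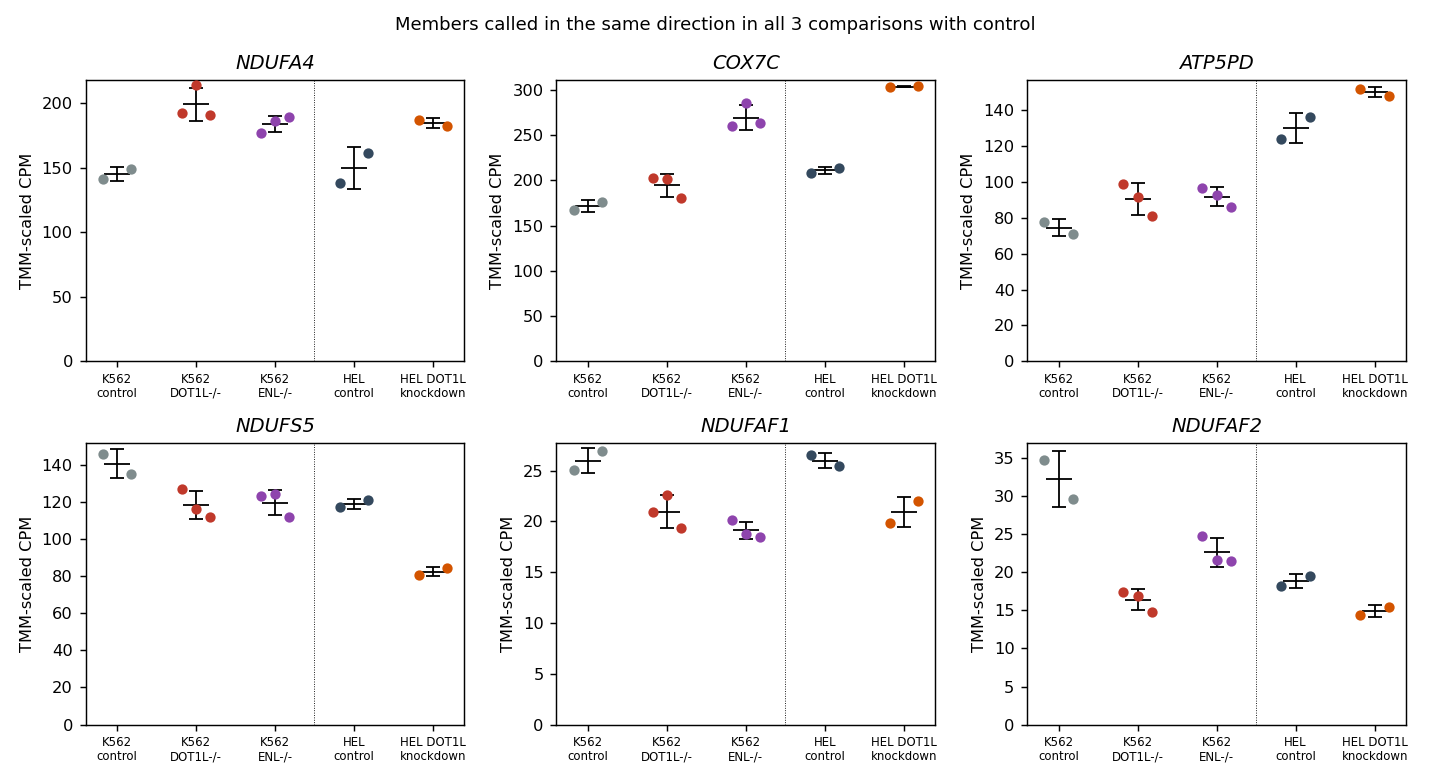
TMM-scaled CPM of the 6 members called in 1 direction in every comparison with a control, by group; points are libraries, and bars are the mean and SD (2 or 3 libraries a group). K562 and HEL are scaled separately, and each perturbed group lies wholly on 1 side of its control, as for NDUFAF2 with 29.6 and 34.8 CPM in the K562 controls and 14.8 to 17.4 CPM in DOT1L-/-.

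The response to DOT1L loss was compared between the lines with an interaction term, the HEL change minus the K562 change, in 1 fit over the 9 control and DOT1L libraries. Of 94 members tested 30 had a higher and 5 a lower value, which is 37.2% against 38.9% of all 15367 genes (19.8% higher and 19.1% lower), and the median difference was 0.19 for the members and 0.01 for all genes. With the length trend removed, 24 were higher and 9 lower, and 38.6% of all genes were called. The perturbations were a knockout in K562 and a knockdown in HEL, so the line and the kind of perturbation cannot be told apart. Among the 85 members tested in both lines, 15 were called in each line. The sign matched for 10 of them and was opposite for 5. Those 5 were NDUFA10, NDUFB4, NDUFAF8, UQCRFS1 and ATP5MC1, all lower in K562 and higher in HEL, and the interaction was called for each; NDUFB4 is named after its values were seen. A further 38 members were called higher and 9 lower in HEL but not in K562. The shares of all genes called in both lines or in HEL only were not counted, and nothing is read from these counts. The biological coefficient of variation was 1.83% in HEL and 6.34% in K562, so smaller changes could be called in HEL. The part of this difference in the counts was not tested.

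NDUFA10 had the largest interaction among the subunits called, at 0.81 ± 0.08 (adjusted p = 4.68e-08), from -0.51 in K562 and 0.28 in HEL. That of UQCRFS1 was 0.60 ± 0.086 (adjusted p = 8.9e-06), that of UQCR11 0.58 ± 0.083 (adjusted p = 9.56e-06) and that of ATP5PO -0.52 ± 0.074 (adjusted p = 9.56e-06). UQCR11 in K562 was at 127 and 128 CPM in the controls and 124, 119 and 117 CPM in DOT1L-/-, and was not called there (-0.09, 95% interval -0.21 to 0.03). NDUFAF8 had 7.35 and 9.21 CPM in the HEL controls and 10.7 and 11.7 CPM in the knockdown (0.44), and its interaction was 1.15 ± 0.18 (adjusted p = 2.18e-05). Its HEL call was lost without control library 1 (0.28, adjusted p = 0.162) and without knockdown library 2 (0.37, adjusted p = 0.0718), while the interaction was called without each library in turn. ATP5MC1 in K562, at 69.3 and 67.9 CPM against 64.8, 60.9 and 57.7 CPM (-0.17, adjusted p = 0.0464), was a borderline call that was lost without either control, at -0.15 and -0.18 (adjusted p 0.189 and 0.119), and without knockout library 2 or 3 or ENL-/- library 2. NDUFA4 (-0.14) and COX7A2 (-0.03) had no called interaction, with 95% intervals of -0.33 to 0.06 and -0.21 to 0.15.

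**Figure D4:**
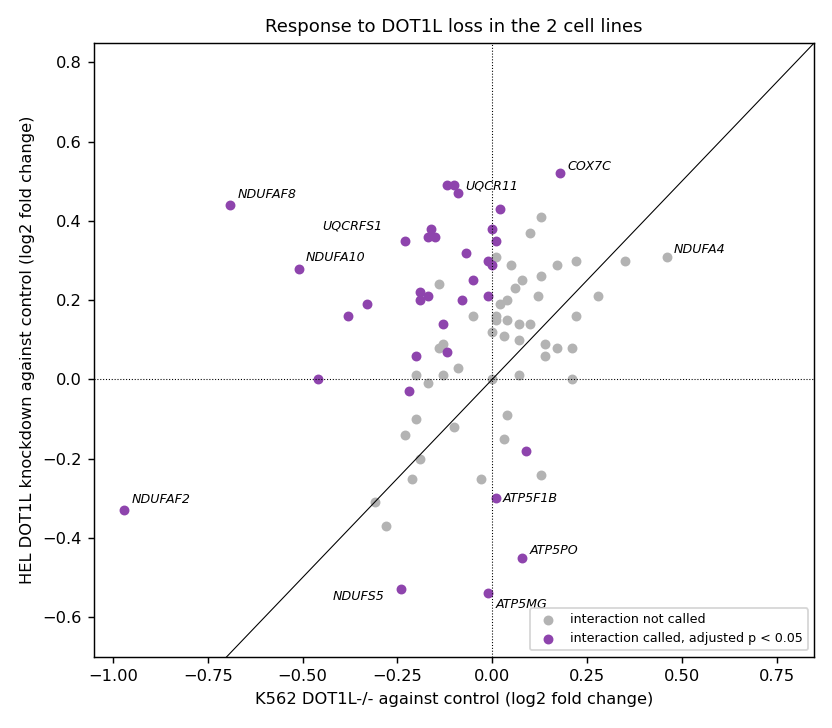
Log2 fold change on DOT1L loss of the 85 members tested in both lines, K562 on the horizontal and HEL on the vertical axis; each point is a gene, purple where the interaction was called, and the diagonal marks equal change. The HEL value was above the K562 value for 60 members, below it for 23 and equal at 2 decimals for 2.

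Several tissue-specific paralogues had few or no counts. COX4I2, COX6A2, COX7A1 and COX8C were at or near 0 in both lines, whereas the widely expressed COX4I1, COX6A1, COX7A2 and COX8A were abundant. COX7B2, a paralogue of COX7B known from testis, was counted mainly in DOT1L-/-. Its raw counts were 7 and 1 in the K562 controls, 182, 224 and 149 in DOT1L-/-, 0, 3 and 0 in ENL-/-, and 0, 0, 1 and 0 across the HEL libraries. In CPM these are 0.325 and 0.0473 in the controls and 8.27, 7.57 and 7.05 in DOT1L-/-, so all 3 knockout libraries stood apart from all others (log2 fold change 5.30 ± 0.39, adjusted p = 9.12e-08, edgeR). On 555 counts against 8, the ratio of scaled counts was 40.7, with a 95% interval of 20.5 to 94.7 that covers counting error only. The fitted change depended on the control library, at 7.16 without control library 1 and 4.52 without control library 2, and was called in both cases. Against ENL-/-, with 3 counts, the ratio was 144 (49 to 700). All 3 of those counts were in ENL-/- library 2, and the fitted change of 7.02 against ENL-/- went from 6.42 to 10.37 as each library was left out, the highest without that library, where the remaining ENL-/- libraries are at 0 and the value is no bound. COX7B itself was at 104 and 100 CPM in the controls and 94.4, 95.7 and 84.7 CPM in DOT1L-/-. Per kilobase of exon in DOT1L-/-, COX7B2 stood at 14 ± 1.12 CPM and COX7B at 37.5 ± 2.46 CPM (SD, n = 3). The annotated exonic lengths used were 543 bases for COX7B2 and 2444 for COX7B.

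COX6B2, the testis paralogue of COX6B1, had 3.07 and 2.55 CPM in the K562 controls, 0.5, 0.507 and 0.757 CPM in DOT1L-/- and 0.58, 0.73 and 0.456 CPM in ENL-/-. Both knockouts were well below the controls (-2.27 ± 0.27, adjusted p = 9.5e-06, and -2.22 ± 0.28, adjusted p = 2.6e-05). As ratios of control to knockout these were 4.87 (3.4 to 7.1) and 4.68 (3.18 to 7.07). No COX6B2 count was found in HEL. NDUFA4L2, a hypoxia-induced paralogue of NDUFA4, had 1.3 and 1.37 CPM in the K562 controls, 1.73, 1.72 and 2.37 CPM in DOT1L-/- and 0.386, 0.681 and 0.847 CPM in ENL-/-. It was lower in ENL-/- (-1.1 ± 0.34, adjusted p = 0.019), a call that was lost without control library 1 (-1.13, adjusted p = 0.0692), control library 2 (-1.06, adjusted p = 0.0883) or ENL-/- library 1 (-0.82, adjusted p = 0.0743). COX7A2L, which helps to join complexes III and IV into supercomplexes, was at 102 and 106 CPM in the HEL controls and 147 and 146 CPM in the knockdown (0.49 ± 0.043, adjusted p = 3.12e-14), and was not called in DOT1L-/- (-0.1). The inhibitor ATP5IF1, which blocks ATP hydrolysis by the synthase, was at 118 CPM in both HEL controls and 130 and 134 CPM in the knockdown (0.16, adjusted p = 0.00128), and was not called in either K562 comparison with control.

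**Figure D5:**
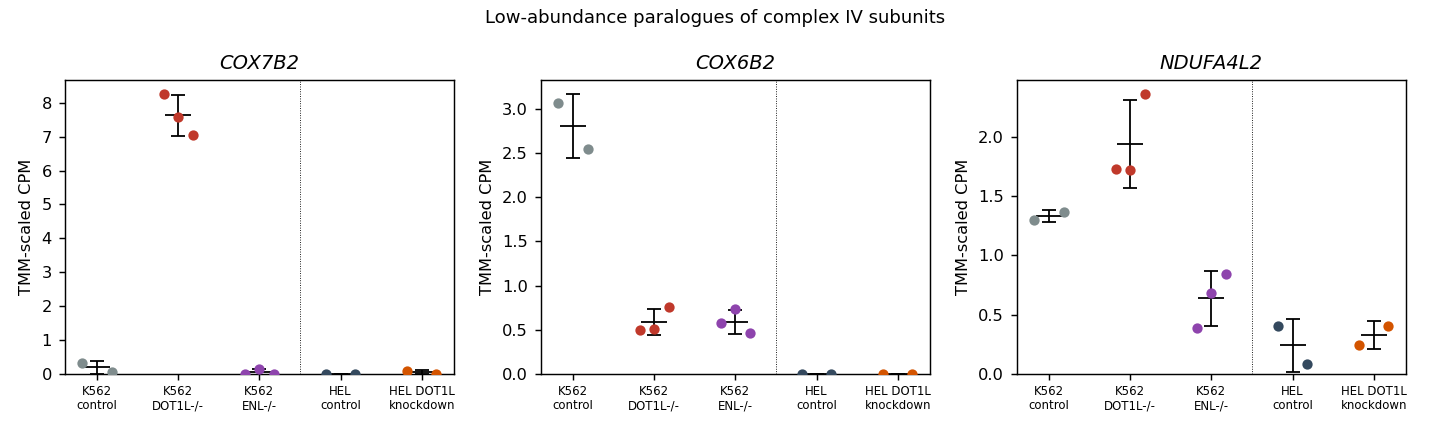
TMM-scaled CPM of 3 low-abundance paralogues of complex IV subunits by group; points are libraries, and bars are the mean and SD. COX7B2 reached 7.05 to 8.27 CPM in DOT1L-/- and at most 0.325 CPM in every other library, and COX6B2 was at 2.55 and 3.07 CPM in the K562 controls and at most 0.757 CPM elsewhere.

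The rest of the mitochondrial programme was read from gene lists, whose counts stand against 51.1% of all genes called in DOT1L-/-, 41% in ENL-/- and 55% in the HEL knockdown. None of the 13 protein-coding genes of mitochondrial DNA is among the genes analysed here. Of 41 assembly factors outside the naming rule, such as those of complex IV, 4 were higher and 5 lower in DOT1L-/-, 6 and 4 in ENL-/-, and 17 and 8 in the HEL knockdown, with medians of 0.02, 0.06 and 0.11, which is 22%, 24.4% and 61% called. Of 81 mitochondrial ribosomal protein genes tested in K562, 5 were higher and 20 lower in DOT1L-/- (median -0.07) and 14 and 8 in ENL-/- (0.06), and of 80 in HEL 35 were higher and 10 lower (0.15). Their shares called were 30.9%, 27.2% and 56.2%, the last near that of all genes. Enzymes of the citrate cycle and pyruvate dehydrogenase, 16 in number, had 3 higher and 6 lower in DOT1L-/- (-0.12), 4 and 2 in ENL-/- (0.02), and 9 and 3 in HEL (0.13), or 56.2%, 37.5% and 75% called. The 18 glycolytic genes, which supply the cytosolic route to ATP, had 2 higher and 13 lower in DOT1L-/- (-0.42), 3 and 5 in ENL-/- (0.01), and 14 and 2 in the HEL knockdown (0.26), or 83.3%, 44.4% and 88.9% called. CYCS, the electron carrier between complexes III and IV, was not called in either knockout (-0.17 and 0.00) and was higher in HEL (0.19, adjusted p = 0.000921). Of 14 biogenesis regulators tested, 2 were higher and 3 lower in DOT1L-/-, 2 and 1 in ENL-/-, and 3 and 3 in HEL, or 35.7%, 21.4% and 42.9% called. TFAM, which packages mitochondrial DNA and helps to start its transcription, was lower in HEL (-0.54, adjusted p = 1.44e-12, edgeR). It was not called in DOT1L-/- (-0.15) or ENL-/- (-0.08).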

How the data were processed

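RNA-seq libraries of polyadenylated RNA were used from 13 of the 74 samples of the series; the other 61 were not analysed here. The authors deposited whole-number counts per gene, fragments for K562 and reads for HEL, not scaled, with exon positions and exonic length per gene, per the file headers. The submitters' processing notes name fastp 0.13.1, HISAT2 2.1.0, Bowtie2 2.3.4.1, featureCounts 1.6.1, deepTools, and the builds hg38 and hg19, without saying which step used which. Gene starts of 68 of 82 members lay within 100 bases of the RefSeq start on GRCh38.p14. Members were matched by symbol, and 21 of 103 had no promoter entry.

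Groups followed the labels, and the 2 identical K562 control columns were counted as 1 library. Counts were filtered with filterByExpr (minimum count 10, minimum total 15), scaled with TMM factors and tested with glmQLFit and glmQLFTest of edgeR 4.0.16 in R 4.3.3. One fit held the 8 K562 libraries, another the 4 HEL libraries, and the interaction fit 9. P-values were adjusted over all genes tested, with a threshold of 0.05, and the scripts were tested on simulated counts. CPM are TMM-scaled. Standard errors come from the F statistic, and 95% intervals are unadjusted. Ratios of summed counts have exact binomial intervals, and a count of 0 allows up to 3 counts, or 0.101 to 0.244 CPM depending on the library; without molecular identifiers both cover counting error only. The biological coefficient of variation was 6.34% in K562 and 1.83% in HEL.

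The members and lists were chosen with earlier results of these data known. Genes were named if they code for catalytic or redox-centre subunits, were among the 4 largest called increases or decreases of a comparison (mean of at least 5 CPM, groups not overlapping), were called in 1 direction in all 3 comparisons with a control, belong to a paralogue set, or had one of the largest interactions; 1 gene of this rule is not reported here. Alternatives were other scalings (RLE, upper-quartile, library size), no or a stricter filter (5 CPM), DESeq2 1.42.0, only the groups compared, the replicate number as a block, a length correction, an added fold threshold, the identical columns kept apart, and each library left out. Replicate numbers were not used to pair libraries, since the labels do not pair them. Same-numbered libraries had a weak positive correlation, at r 0.0531 to 0.22 in K562 and 0.000442 in HEL. Differently numbered K562 libraries had r of -0.158 to 0.0881. The summed subunit level fell with the replicate number in each K562 group. It went from 11490 to 11250 CPM in the controls, 11580 to 10590 CPM in DOT1L-/- and 12520 to 11630 CPM in ENL-/-. The fit with a block is therefore given as an alternative.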

Additional observations from a re-analysis of the deposited data

Results flagged for a closer look

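The results listed here were singled out because the response to DOT1L loss differed between HEL and K562 by the test of the difference itself (the interaction term in edgeR, HEL change minus K562 change on the log2 scale, adjusted p under 0.05). No group had enough libraries for a check on a single far-off library. In all, 35 of 94 members differed, which is 37.2% against 38.9% of all 15367 genes tested, so the share of members is close to that of all genes. In complex I, the difference was 0.81 for NDUFA10, 0.42 for NDUFS7, 0.39 for NDUFV1, 0.33 for NDUFB2 and -0.27 for NDUFS5. The assembly factors NDUFAF8, NDUFAF2 and NDUFAF7 differed by 1.15, 0.66 and 0.47, where NDUFAF2 had -0.97 in K562 and -0.33 in HEL. SDHA and SDHB of complex II both differed by 0.21. In complex III the values were 0.6 for UQCRFS1, 0.58 for UQCR11, 0.3 for UQCRH and 0.56 for its near-identical copy UQCRHL. In complex IV they were 0.53 for COX7B, 0.4 for COX6A1, 0.36 for COX7C and 0.62 for the related supercomplex factor COX7A2L. In complex V they were 0.63 for ATP5ME, 0.55 for ATP5MC1, 0.28 for ATP5F1A, -0.3 for ATP5F1B, -0.51 for ATP5MG and -0.52 for ATP5PO. Of the 24 genes named, 16 were called without each library in turn. NDUFAF7, NDUFB2, NDUFS5, NDUFS7, NDUFV1, SDHA, SDHB and UQCRHL were not, with values of 0.35 to 0.58, 0.27 to 0.38, -0.33 to -0.2, 0.3 to 0.53, 0.25 to 0.55, 0.16 to 0.27, 0.16 to 0.26 and 0.44 to 0.65 when 1 library was left out.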

How the results depend on the processing

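With an added threshold of 0.5 on the absolute log2 fold change, the members called were 5 in DOT1L-/-, 6 in ENL-/-, 5 between the knockouts, 3 in HEL and 14 for the interaction, against 28.6%, 21%, 32.8%, 19.4% and 25.4% of all genes. With the replicate number as a block, the counts among 92 members were 41 (17 higher, 24 lower) in DOT1L-/- and 57 (46 higher, 11 lower) in ENL-/-. They were 22 and 32 in the main fit. The share of all genes called went from 51.1% to 58.3% and from 41% to 49.1%. In ENL-/- the share of members called was thus above that of all genes with the block, and below it in the main fit. The replicate numbers do not pair the libraries by their labels. The member median in HEL was 0.23 with upper-quartile scaling, where the median of all genes was 0.09, and 0.06 with the length trend removed. COX5A in HEL went from 0.01 (not called) to -0.12 with the length trend removed (adjusted p = 0.0101, edgeR). Leaving out each library in turn gave 15 to 27 members in DOT1L-/-, 13 to 34 in ENL-/-, 33 to 49 between the knockouts, 51 to 57 in HEL and 25 to 46 for the interaction, and HEL medians of 0.13 to 0.17. The shares of all genes called with a library left out are not given here, so these ranges are not read as a trait of the members. Of 4568 values of named members under the alternatives, 4177 kept direction and side of the threshold, 260 lost the call, 130 gained it and 1 reversed. The 4177 include values called neither in the main fit nor in the alternative, so they do not show how many calls held. Most named calls in the K562 comparisons with a control were lost when 1 library or another was left out. The cause of these shifts was not tested. Only 2 control libraries limit the K562 comparisons with control.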
